A study of Mus musculus with 5375 samples.

Results

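Chemokine ligands were followed in the lung endothelium and in arriving tumour cells. The set comprised 10 genes (Cxcl1, Cxcl5, Cxcl9, Cxcl10, Cxcl12, Cxcl16, Ccl2, Ccl5, Ccl7 and Cx3cl1) of the 35256 genes present in the raw tables of both cell types. They were named by symbol around Cxcl10, which was chosen by its counts in ECs of day 1.5 against day 0, and all 10 were found. Levels were measured as reads of the gene per 1000000 reads of the library (CPM) and as the share of cells with any read, in each animal, across 3 endothelial time points and 5 tumour cell (TC) groups.

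Chemokines are small secreted proteins that guide leukocytes by binding receptors on their surface. CXCL9 and CXCL10 are ligands of CXCR3 and are known as targets of interferons, CXCL1 and CXCL5 draw neutrophils through CXCR2, CCL2 and CCL7 draw monocytes through CCR2, and CCL5 binds CCR1 among other receptors. CXCL12 binds CXCR4 and is taken up by ACKR3, whereas CXCL16 and CX3CL1 are made as membrane-bound proteins that can be shed and that bind CXCR6 and CX3CR1, so that an endothelial cell (EC) can present them at its surface.

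The mice were female BALB/c animals of 8 to 12 weeks, and the labels give the genotype of all ECs as WT. ECs of day 0 came from 4 uninjected animals, and ECs of day 1.5 and day 3.5 from 3 animals each that had received 4T1-GFP cells by tail vein in 2 injections of 1000000 cells. 4T1 is a single established line of mouse mammary carcinoma, here marked by a green fluorescent protein and by CellTrace, a dye that dims with each division. ECs were sorted as CD31+ cells without CD45, PDPN, LYVE1 or TER119. TCs of day 1.5 were split, in the same 4 animals, into intravascular and extravascular cells by an antibody against H-2Kd given into the blood before euthanasia. TCs of day 3.5 were split by the dye into latent cells, from 4 animals, and proliferative cells, for which the deposited annotation names 1 animal only, so that they were handled as 1 pool. That animal is also the source of latent replicate 4, which the comparison of these fractions did not take into account. Cultured 4T1-GFP cells before injection formed a further single pool. Intravenous seeding of a cultured line models arrival in the lung and not the release of cells from a primary tumour.

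The deposited tables of kept cells hold 2479 of 3455 sorted ECs and 1566 of 1920 sorted TCs. Summed reads in units of 1000000 came to between 75.6 and 129.5 per EC animal, to between 31.9 and 49.9 per TC animal and gate, to 163.5 for the proliferative pool and to 92.1 for culture. The identity of the sorts was checked on marker lists. The 7 endothelial genes, Pecam1 and Cdh5 among them, summed to between 8946 and 15270 CPM in the EC libraries and to between 19.7 and 50.7 CPM in the TC libraries. The 5 epithelial genes that mark 4T1, Krt8 and Epcam among them, summed to at least 2349 CPM in the TC libraries and to at most 10.9 CPM in the ECs. EC and TC libraries were prepared with 22 and 18 cycles of cDNA amplification, and each TC gate and each EC day was sequenced in lanes of its own. Cell type and preparation, TC gate and lane, and EC day and lane therefore cannot be told apart. A sum over cells likewise cannot separate fewer expressing cells from less RNA per cell, and for this reason the share of cells is given beside the level.

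Several of the genes are neighbours. On GRCm38, Cxcl9 lies on chromosome 5 from 92321347 to 92328079 and Cxcl10 from 92346638 to 92348889, both on the minus strand and with 18558 bases between them. Cxcl5 (90759360 to 90761624) and Cxcl1 (90891241 to 90893115) lie on the plus strand of the same chromosome. Ccl2 (82035571 to 82037453), Ccl7 (82045712 to 82047525) and Ccl5 (83525778 to 83530518) lie on chromosome 11, as does Cxcl16 (70453983 to 70459984). Cxcl12 lies on chromosome 6 from 117168535 to 117181367, and Cx3cl1 on chromosome 8 from 94772009 to 94782427. Cxcl10 overlaps Art3, Cxcl16 overlaps Zmynd15 and Ccl2 overlaps Gm17268 on the opposite strand. Whether reads were counted by strand was not stated and whether exons of these pairs overlap was not examined, so that their counts are uncertain to that extent.

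Promoter sequences were read for 5 of the 10 genes from RefSeq (GRCm38.p6) as the 250 bases before the start of the gene in RefSeq. That start is not always the one given above. The window of Cxcl1 ends at 90891244 and that of Cx3cl1 at 94772179, past the starts at 90891241 and 94772009. A pair of motifs was searched on both strands: GAAA followed after 2 bases of any kind by GAAA, the core of the element bound by interferon-activated factors, and GGG followed after 3 bases of any kind by TTCC, a form of the site bound by NF-kB. The first is present in 2.98% and the second in 4.65% of 32536 mouse promoters of this length. Cxcl10, Cxcl9, Cxcl1 and Cxcl12 are shown because they stand for the interferon, neutrophil and homeostatic ligands whose levels are given next. Each is written 5′ to 3′ on the strand of its gene, and capitals mark the motif matches.
Cxcl10, chr5:92348890-92349139, minus strand: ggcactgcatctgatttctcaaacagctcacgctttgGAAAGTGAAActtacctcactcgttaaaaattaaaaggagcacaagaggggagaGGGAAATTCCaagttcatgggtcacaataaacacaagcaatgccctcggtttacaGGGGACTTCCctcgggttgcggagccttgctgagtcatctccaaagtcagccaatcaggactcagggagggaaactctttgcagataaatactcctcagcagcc
Cxcl9, chr5:92328080-92328329, minus strand: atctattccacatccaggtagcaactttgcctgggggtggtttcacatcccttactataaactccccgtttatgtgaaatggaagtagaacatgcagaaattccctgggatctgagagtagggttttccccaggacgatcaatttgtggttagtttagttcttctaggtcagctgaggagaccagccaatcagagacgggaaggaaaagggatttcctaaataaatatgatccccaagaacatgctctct
Cxcl1, chr5:90890995-90891244, plus strand: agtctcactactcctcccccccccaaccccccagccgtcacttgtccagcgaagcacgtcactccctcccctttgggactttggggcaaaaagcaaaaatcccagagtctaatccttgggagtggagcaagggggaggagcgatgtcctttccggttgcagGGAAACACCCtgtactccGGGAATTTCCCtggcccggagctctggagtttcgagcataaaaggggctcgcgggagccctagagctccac
Cxcl12, chr6:117168285-117168534, plus strand: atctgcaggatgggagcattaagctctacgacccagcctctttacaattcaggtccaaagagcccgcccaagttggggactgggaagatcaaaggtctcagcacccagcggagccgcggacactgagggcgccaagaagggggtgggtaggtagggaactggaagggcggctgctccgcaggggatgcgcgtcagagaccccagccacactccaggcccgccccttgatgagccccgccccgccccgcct
The Cxcl10 promoter holds 1 match to the interferon motif, GAAAGTGAAA at 213 bases before the start, and 2 matches to the NF-kB motif, GGGAAATTCC at 159 and GGGGACTTCC at 104 bases. The Cxcl1 promoter holds 3 matches to the NF-kB motif, of which the pair at 71 and 70 bases overlap on opposite strands and the third stands at 89 bases. Cxcl9, Cxcl12 and Cx3cl1 hold neither motif in this window. These matches are letters in a window and were not tested as binding sites.

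The source of each ligand differed between the sorted cell types. Cxcl12 RNA was found in ECs. Cxcl1, Ccl5, Ccl2 and Cxcl5 RNA was found in TCs. Cxcl10, Cxcl16 and Cx3cl1 RNA was found in both, Cxcl9 was sparse in both, and Ccl7 was found in 1 EC of day 1.5 and 1 intravascular TC, with 2 reads and 1 read.

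**Figure D1:**
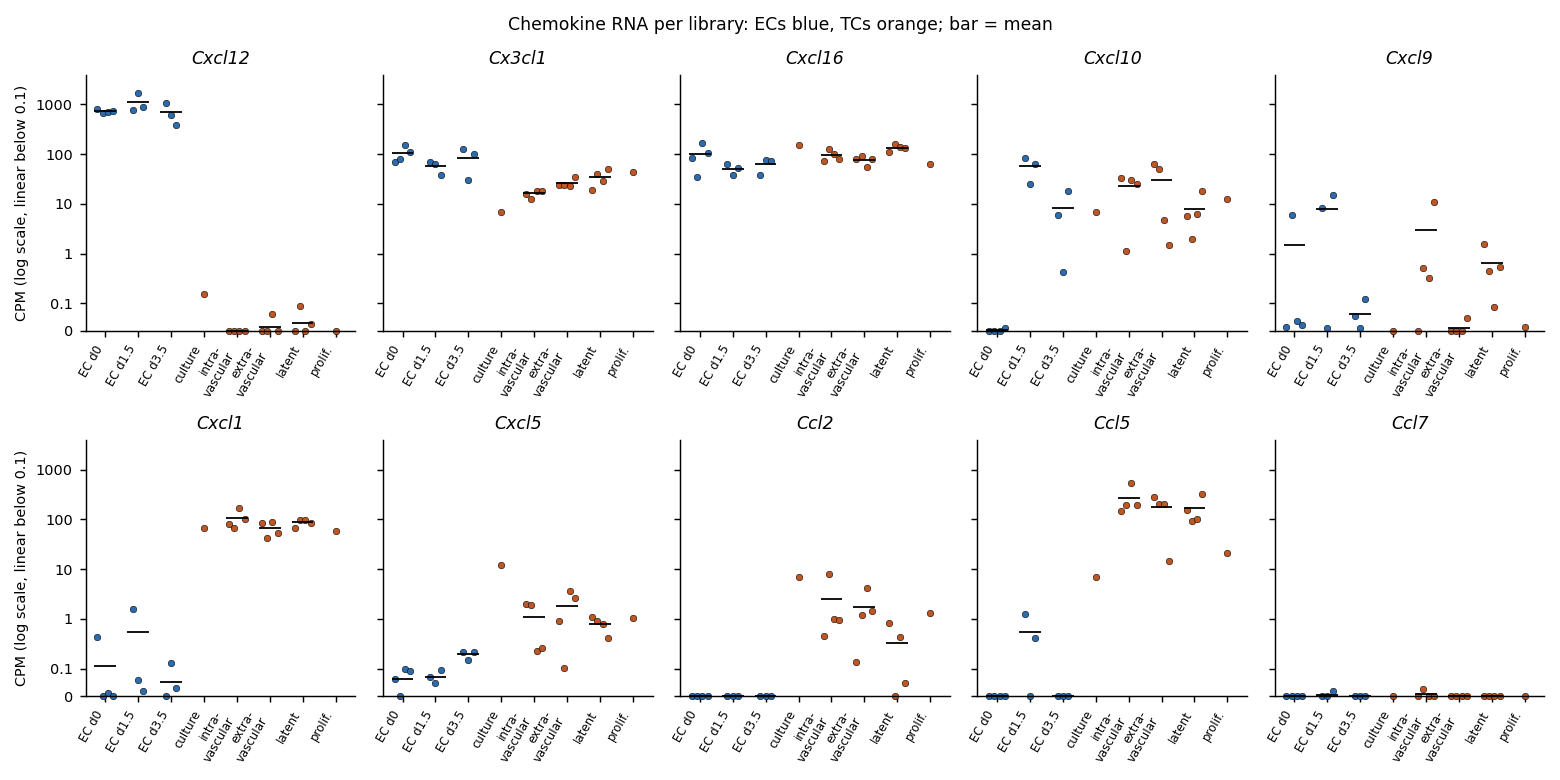
CPM of each chemokine gene per library (points; vertical axis logarithmic above 0.1 and linear below), with ECs in blue, TCs in orange and the group mean as a bar. Cxcl12 lies between 392 and 1672 CPM in all 10 EC libraries and at or below 0.152 CPM in all TC libraries, whereas for Ccl5 and Cxcl1 all TC libraries lie above all EC libraries.

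In the comparison of ECs with TCs of day 1.5, 46.5% of 22193 genes tested were called by edgeR's quasi-likelihood test (Benjamini-Hochberg adjusted over all genes), 27.6% as higher in ECs and 18.9% as lower. Against this background, 9 of the 10 genes passed the filter on low counts, 3 were called as higher in ECs (Cxcl12, Cx3cl1 and Cxcl9) and 5 as lower (Ccl5, Cxcl1, Ccl2, Cxcl5 and Cxcl16). The median log2 difference was -1.16 over these 9 genes, of which 2 had no read in a group compared, and 0.19 over all genes. ECs of day 1.5 came from the same animals as TC replicates 1 to 3, which this fit did not take into account. On day 3.5, 35.1% of genes were called, 19.2% higher and 15.9% lower. Here Cxcl12 was called as higher in ECs and Cxcl1, Ccl2 and Ccl5 as lower, with a median log2 difference of -0.82 over the 9 genes and 0.14 over all genes. The TC side of day 3.5 was the mean of latent cells and the single proliferative pool at equal weight. ECs of day 3.5 shared their animals with latent replicates 1 to 3. DESeq2 called 40.5% and 35.7% of genes on the 2 days and put the median of all genes at -0.03 and 0.0. Limma on the authors' log10 values, averaged over cells, put it at -0.42 and -0.52 and called 2339 genes higher and 11480 lower in ECs on day 1.5 and 1962 and 11514 on day 3.5.

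Cxcl12, the ligand of CXCR4 that holds leukocytes and progenitors in tissues, was found almost only in ECs among the sorted cells. Its level was 820.0, 672, 693 and 749 CPM in the 4 animals of day 0 (mean 733 ± 66.2, SD). It was 764, 1672 and 873 CPM on day 1.5 (1103 ± 496) and 1095, 617.5 and 392 CPM on day 3.5 (702 ± 359). The ranges of the 3 days overlapped. Cxcl12 reads were present in 52.1% ± 4.78 of ECs on day 0, 65.8% ± 4.54 on day 1.5 and 55.2% ± 12.2 on day 3.5. No read fell on Cxcl12 in any of 325 intravascular or 237 proliferative TCs, while 2 of 306 extravascular, 2 of 329 latent and 2 of 369 cultured cells had reads. With a floor of 3 reads over the group, the EC level of day 1.5 was at least 64910-fold higher than that of intravascular TCs, and the EC level of day 3.5 at least 38230-fold higher than that of proliferative TCs. The adjusted p of the edgeR test was 1.72e-12 on day 1.5 and 1.98e-09 on day 3.5.

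Cx3cl1 encodes fractalkine, the membrane-bound ligand for patrolling monocytes and cytotoxic lymphocytes. ECs held 68.4, 81.7, 155 and 110.0 CPM on day 0, 68.2, 63.8 and 38.7 CPM on day 1.5, and 126, 29.9 and 99.4 CPM on day 3.5. In TCs the mean was 16.2 ± 2.52 CPM in intravascular, 26.3 ± 5.46 in extravascular and 34.6 ± 13.6 in latent cells (SD, n = 4 each), with 7.01 CPM in the culture pool and 43.6 CPM in the proliferative pool. All 3 EC libraries of day 1.5 lay above all 8 TC libraries of that day. The log2 difference was 1.04 ± 0.35 (SE, edgeR adjusted p = 0.0197) on day 1.5 and 0.88 ± 0.44 (adjusted p = 0.124) on day 3.5. The share of cells ran the other way. Cx3cl1 reads were present in 28.0% ± 8.57 of ECs of day 1.5 but in 49.2% ± 2.23 of intravascular and 54.5% ± 1.14 of extravascular TCs, and with cells drawn down to 100000 reads the shares were 22.9%, 32.5% and 39.6%. Shallower cells were left out of that step, 86 of 941 ECs, 23 of 325 intravascular and 12 of 306 extravascular TCs. At a limit of 10 reads they were 13.8% ± 4.37, 16.9% ± 1.44 and 25.2% ± 5.38, so that ECs and intravascular TCs differed by less than the SD between EC animals. On the mean of the authors' log10 values per animal, which weights every cell equally, limma gave a log2 difference of -1.13 (adjusted p = 0.000206) on day 1.5 and -2.04 (adjusted p = 5.72e-07) on day 3.5. This fit differs from the first in normalisation, scale and test as well, and the cause of the turn was not tested. The call on day 1.5 was lost without EC replicate 1 (0.86, adjusted p = 0.0971) or EC replicate 2 (0.95, adjusted p = 0.0693).

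Cxcl16, the other membrane-bound ligand, was present in both cell types. Levels were 83.7, 34.2, 172 and 106 CPM in ECs of day 0, 63.7, 37.4 and 53.4 CPM on day 1.5, and 37.8, 78.0 and 73.3 CPM on day 3.5. TCs held 94.8 ± 23.6 CPM in the intravascular, 76.8 ± 14.9 in the extravascular and 136 ± 21.9 in the latent fraction (SD, n = 4 each), and 151 and 62.0 CPM in the culture and proliferative pools. Cells with reads made up 17.6% to 20.4% of ECs by group mean and 54.0% to 87.8% of TCs. ECs of day 1.5 were lower than TCs by 1.16 ± 0.36 on the log2 scale (SE; log2 difference -1.16, edgeR adjusted p = 0.0127), a call lost without EC replicate 2 (-0.97, adjusted p = 0.0716). On day 3.5 the difference to the mean of latent and proliferative TCs was -0.79 ± 0.40 (edgeR adjusted p = 0.129), and -3.62 by limma on the log10 means (adjusted p = 9.56e-11). With animals of both cell types as a replicate block, ECs were compared with latent TCs only, a different comparison. That difference was -1.43 (edgeR adjusted p = 0.019).

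The neutrophil ligands were found mainly in TCs. Cxcl1 was at 79.4, 68.3, 166 and 104.5 CPM in intravascular TCs, at 85.2, 42.3, 87.8 and 54.4 CPM in extravascular TCs and at 67.4, 99.7, 96.1 and 85.0 CPM in latent TCs. The pools held 66.5 CPM in culture and 58.9 CPM in proliferative cells. In intravascular libraries the cell of most reads held 19.5% to 69.7% of the Cxcl1 reads, and without it the mean fell from 104.6 to 56.3 CPM. Without that cell the means were 53.0 CPM in extravascular and 68.8 CPM in latent TCs. No EC library passed 1.59 CPM, and 11 of the 2479 ECs had any Cxcl1 read, against 56.6% to 69.1% of TCs by group. The log2 difference of ECs to TCs was -7.62 ± 1.48 (SE, edgeR adjusted p = 0.000348) on day 1.5 and -10.58 ± 1.76 (adjusted p = 0.000112) on day 3.5. Cxcl5 was at 12.4 CPM in culture, where 119 of 369 cells had reads, and its mean lay between 0.792 and 1.83 CPM in the 4 groups of TCs taken from the lung. In those groups 4.61% to 6.99% of cells had reads. ECs held at most 0.216 CPM, with a log2 difference to TCs of -4.72 ± 1.20 (adjusted p = 0.00342) on day 1.5 and -2.47 ± 1.12 (adjusted p = 0.0926) on day 3.5, where DESeq2 (-2.57, adjusted p = 0.0222) and limma on the log10 means (-0.21, adjusted p = 0.00874) called it. With 1 culture pool, culture was compared with no test.

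Ccl5, a ligand that draws T cells and monocytes, varied widely among TC libraries. Intravascular TCs held 150.5, 195, 551 and 197 CPM, extravascular TCs 283, 209, 203 and 14.5 CPM, and latent TCs 153, 91.5, 100.2 and 324 CPM. Proliferative cells stood at 21.6 CPM and cultured cells at 6.88 CPM. The single cell of most reads held 23.2% to 94.15% of the Ccl5 reads in each library of TCs from the lung, and cells with reads made up 33.6% ± 5.94 of intravascular, 16.6% ± 10.2 of extravascular and 28.1% ± 7.93 of latent TCs, 8.44% of proliferative and 5.15% of cultured cells. In ECs 5 of 941 cells of day 1.5 had Ccl5 reads (1.27, 0 and 0.405 CPM) and none of the 839 cells of day 0 or 699 cells of day 3.5. On day 1.5 the log2 difference of ECs to TCs was -9.02 ± 1.45 (SE, edgeR adjusted p = 0.000143). On day 3.5 latent TCs were at least 16300-fold and proliferative TCs at least 2105-fold higher than ECs (adjusted p = 7.24e-05). The leukocyte marker list, 14 genes, summed to 3.46 to 13.25 CPM in intravascular and extravascular libraries but to 255.5 and 157 CPM in latent replicates 1 and 4, where Ccl5 stood at 153 and 324 CPM. CD45+ cells were gated out of TC samples as well, and the part of leukocyte RNA in Ccl5 was not tested.

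Ccl2, the main monocyte ligand, was found in no EC (0 of 2479 cells). It was at 0.463, 7.85, 0.996 and 0.942 CPM in intravascular TCs, at 0.136, 1.19, 4.13 and 1.47 CPM in extravascular TCs, at 0.815, 0, 0.43 and 0.0478 CPM in latent TCs, and at 1.29 and 7.07 CPM in the proliferative and culture pools. Between 1.53% and 5.06% of TCs by group had reads, so these levels rested on few cells. ECs were lower on both days (edgeR adjusted p = 0.00246 on day 1.5 and 0.00942 on day 3.5). Intravascular replicate 2 and extravascular replicate 3 held most of the summed level of their groups, and latent replicate 2 had no read, as the ECs.

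**Figure D2:**
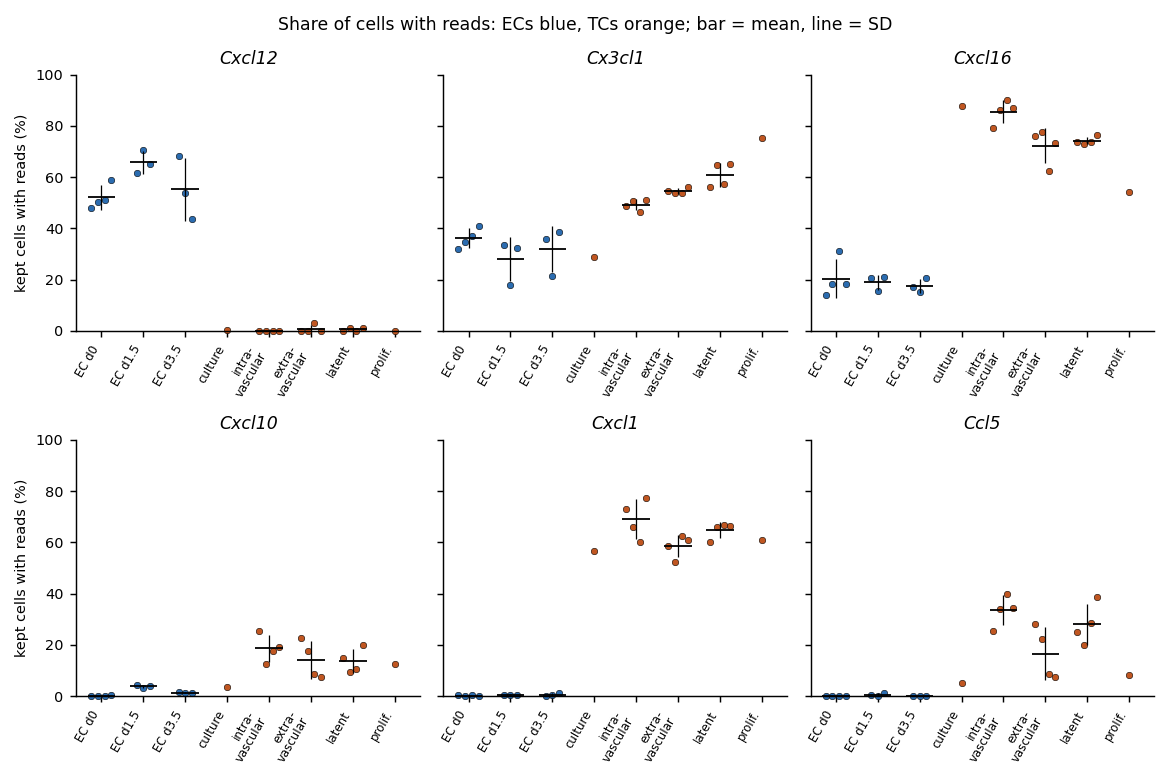
Share of kept cells with any read (percent, vertical axis) of 6 chemokine genes per library, with ECs in blue, TCs in orange, the group mean as a bar and the SD as a line. Cxcl10 reads are present in at most 4.47% of cells in any EC library and in 7.32% to 25.6% of cells in the libraries of intravascular, extravascular and latent TCs.

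Cxcl10 chose the set, and its levels between EC days are given as a description with no test. In ECs of day 0 it had 1 read in 1 of 839 cells, that is 0, 0, 0 and 0.0122 CPM. In the 3 animals of day 1.5 it stood at 82.8, 25.5 and 64.5 CPM (57.6 ± 29.3, SD), and on day 3.5 at 5.88, 0.422 and 17.95 CPM (8.08 ± 8.97). All libraries of day 1.5 lay above all of day 3.5, and these above all of day 0. Within sort days the order was the same: the 2 uninjected animals sorted beside day 1.5 held 0 CPM against 25.5 to 82.8 CPM, and those sorted beside day 3.5 held 0 to 0.0122 CPM against 0.422 to 17.95 CPM. Cells with reads numbered 14 of 313, 9 of 293 and 13 of 335 on day 1.5 (3.81% ± 0.703) and 4 of 266, 3 of 213 and 3 of 220 on day 3.5 (1.43% ± 0.0716).

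The level of Cxcl10 in ECs rested on very few cells. The single cell of most reads held 60.5% to 93.6% of the Cxcl10 reads of a library on day 1.5 and 64.3% to 99.9% on day 3.5. Without that cell the mean of day 1.5 dropped from 57.6 to 7.07 CPM and that of day 3.5 from 8.08 to 0.716 CPM. Of the 36 cells of day 1.5 with reads, the median cell had 2 reads and the highest 9816, and 3 cells with at least 1000 reads held 89.0% of all reads. At a limit of 10 reads the share of cells was 0.952% ± 0.302, and drawn down to 100000 reads per cell it was 2.56% ± 0.220. On day 3.5 the highest cell had 1759 reads.

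**Figure D3:**
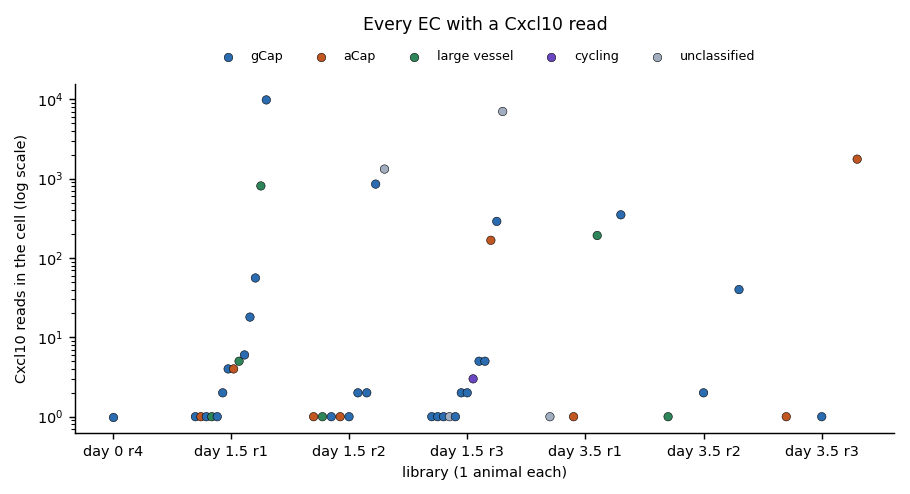
Every kept EC with a Cxcl10 read: reads in the cell (logarithmic vertical axis) by library, coloured by endothelial class. The highest cell holds 9816, 1319 and 7011 reads in the 3 libraries of day 1.5, the median cell of that day holds 2, and day 0 holds 1 cell with 1 read.

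These cells carried endothelial transcripts. All 36 cells of day 1.5 and all 10 of day 3.5 had reads of Pecam1 or Cdh5, with a median of 6 of the 7 endothelial markers detected on both days, and none had a read of Ptprc, which encodes CD45. No read of the 14 leukocyte markers was present in 25 of the 36 cells, 10 had reads of 1 and the highest number was 2. On day 3.5 the count without any was 7 of 10 and the highest number 3. The authors had removed contaminating cells by leukocyte genes that included Ptprc, and 14 of the 2479 kept ECs still had a Ptprc read, 5 of them among the 941 of day 1.5. By class, 23 of the 36 cells were general capillary cells (63.9%, against 59.7% of all ECs of day 1.5), 5 aerocytes (13.9% against 26.1%), 4 large-vessel cells (11.1% against 6.48%), 1 cycling and 3 unclassified. Platelet genes summed to 4.95, 122 and 141 CPM in the 3 libraries of day 1.5, to 13.3, 0.0762 and 76.9 CPM on day 3.5 and to at most 5.82 CPM on day 0, and their part in the Cxcl10 reads was not tested.

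In TCs taken from the lung Cxcl10 was found in a larger share of cells than in ECs, and in cultured TCs in a like share. Intravascular TCs held 33.8, 1.15, 30.8 and 24.8 CPM, extravascular TCs 64.7, 51.4, 4.70 and 1.52 CPM and latent TCs 5.83, 1.96, 6.25 and 17.9 CPM, with 12.8 CPM in the proliferative and 6.88 CPM in the culture pool. These levels also rested on few cells. The cell of most reads held 52.4% to 57.8% of the Cxcl10 reads in intravascular, 35.3% to 79.8% in extravascular and 23.9% to 52.9% in latent libraries. It held 55.1% in the proliferative and 58.2% in the culture pool. Without it the means fell from 22.65 to 10.15, from 30.6 to 7.86 and from 7.98 to 4.36 CPM in the intravascular, extravascular and latent groups. Reads were present in 18.7% ± 5.35 of intravascular, 14.0% ± 7.31 of extravascular, 13.8% ± 4.78 of latent, 12.7% of proliferative and 3.79% of cultured cells. At the common depth of 100000 reads these shares were 13.7%, 10.95%, 10.85%, 8.97% and 3.11%, against 2.56% in ECs of day 1.5. The EC counts of day 1.5 had chosen Cxcl10, so that its difference to TCs of that day is a description with no test. It was 0.69 log2, -0.78 without the cell of most reads in each library, and -0.87 on the mean log10 values per animal. On day 3.5 the log2 difference of ECs to TCs was -0.58 ± 1.21 (SE, edgeR adjusted p = 0.749), and limma on the mean log10 values called it (-0.72, adjusted p = 0.00676).

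Cxcl9, the neighbour of Cxcl10 and also a ligand of CXCR3, was sparse. ECs held 0.0136, 5.92, 0.0373 and 0.0224 CPM on day 0, 8.33, 0.0117 and 14.8 CPM on day 1.5 and at most 0.125 CPM on day 3.5. On day 1.5, 12 of 941 ECs had reads, and 1 cell held at least 97.4% of the reads in each library. Intravascular replicate 4 stood at 11.1 CPM, every other TC library at or below 1.54 CPM, and culture at 0 of 369 cells, which allows a share of cells with a read of up to 0.813%. The difference of ECs to TCs on day 1.5 (4.85 ± 1.74 log2, edgeR adjusted p = 0.0281) was 0.86 (adjusted p = 0.645) without the cell of most reads. It also missed the threshold without EC replicate 1 (4.76, adjusted p = 0.0516), EC replicate 3 (4.00, adjusted p = 0.0963) or extravascular replicate 1, 2 or 3 (4.66 to 4.70, adjusted p = 0.0502 to 0.0516). With the animals of both cell types as a replicate block the log2 difference was 8.16 ± 3.30 (adjusted p = 0.0914). Of 12 Cxcl9-positive ECs of day 1.5, 6 were among the 36 cells with Cxcl10 and 6 among the 905 without.

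The genes whose detection was most like that of Cxcl10 were sought among 16583 genes in the ECs of day 1.5, by the difference in the share of cells with reads between Cxcl10-positive and Cxcl10-negative cells, averaged over 3 animals. The leading 8 were Emp3 (34.9 percentage points), Ppfibp1 (34.1), Ube2l6 (33.8), Gm7407 (32.3), Enah (31.6), Mettl23 (31.2), Tpd52l2 (30.3) and Col18a1 (29.8), against a median of 0.30 over all genes. With 9 to 14 positive cells per animal, single genes varied widely between animals: the difference for Emp3 was 44.8, 55.6 and 4.44 points. Ube2l6 encodes an enzyme that attaches the interferon-induced ISG15. Of the 26 interferon targets on the list used here none was among the leading 8, and the first were Usp18 at rank 14 (27.5 points), Gbp4 at rank 17 (26.3), Ifit1 at rank 21 (25.8, with reads in 13 of 36 against 69 of 905 cells) and Irf1 at rank 27 (25.0), while Stat2 (-12.7 points) ran the other way. These ranks are a description of the same cells.

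Over the list of 26 interferon targets, the mean share of genes detected was 32.7%, 23.5% and 37.9% in Cxcl10-positive ECs of the 3 animals of day 1.5 and 18.7%, 15.5% and 18.6% in the negative cells of the same animals. Of the 26 genes, 24, 20 and 23 were detected in a larger share of the positive cells. The same count over all genes was not made. The median difference over the 16583 genes compared was 0.30 percentage points as a mean of the 3 animals. On day 3.5 the values were 35.6%, 33.3% and 38.5% in positive cells and 18.03%, 18.9% and 18.7% in negative cells. Depth did not differ in 1 direction: positive ECs of day 1.5 had medians of 2770, 2167 and 2867 detected genes, and negative cells 2580, 2078 and 2987. For 16 NF-kB targets the same comparison gave 19.6%, 16.7% and 22.1% against 18.5%, 14.2% and 19.2%. In TCs the NF-kB list stood at 51.2% against 47.6% in intravascular, 44.0% against 43.0% in extravascular (lower in positive cells in replicates 1, 3 and 4, and 50.45% against 42.05% in replicate 2), 55.6% against 47.4% in latent, 56.2% against 50.5% in proliferative and 50.45% against 44.1% in cultured cells. By group mean, positive TCs also had more detected genes, from 5969 against 5897 in extravascular to 6416 against 5777 in cultured cells, but fewer in intravascular replicates 2 and 4, extravascular replicates 3 and 4 and latent replicate 3. The part of depth was not tested. Within TCs the interferon list was higher in Cxcl10-positive cells in 12 of 13 libraries from the lung, latent replicate 2 being the exception (23.1% against 23.3%), and in culture (18.1% against 10.04%). The highest contrast among TCs was that of extravascular replicate 2 (33.2% against 12.5%).

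**Figure D4:**
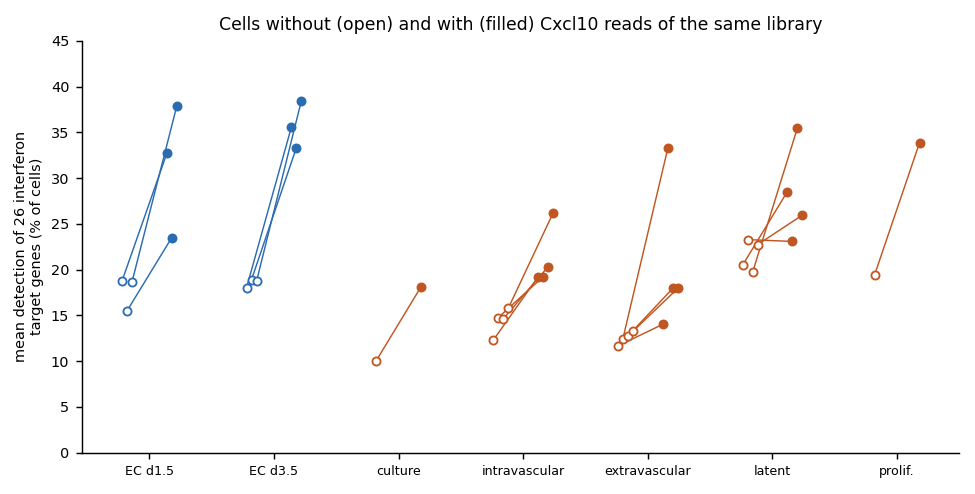
Mean share of cells in which each of 26 interferon target genes was detected (percent, vertical axis) in cells without (open) and with (filled) Cxcl10 reads of the same library, joined by a line, for ECs (blue) and TCs (orange). The filled point lies above the open one in all 6 EC libraries of day 1.5 and day 3.5 and in 13 of 14 TC libraries, culture included.

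The endothelial ligands were divided between the capillary classes. ECs were classified by the study's marker lists, in which none of the 10 genes stands, into 1581 general capillary cells (gCaps) and 606 aerocytes (aCaps), the thin capillary cells of gas exchange. Another 133 cells were of large vessels, 24 were cycling and 135 had no class. The classes were cut from scores, and 140 gCaps (8.86%) and 34 aCaps (5.61%) lay within 0.1 of the limit on the aCap score. The median gCap had reads of 8 of the 13 gCap genes and 0 of the 12 aCap genes. The median aCap had reads of 6 of the 12 aCap genes and 3 of the 13 gCap genes. Within the same 10 animals, 8.81% of 13435 genes differed between the classes (edgeR with the animal as a block), 600 (4.47%) higher and 584 (4.35%) lower in gCaps. DESeq2 gave 2345 and 1300 (13.8%), limma on the log10 means 1150 and 2126, and DESeq2 shifted the median of all genes from 0.25 to -0.19 on the log2 scale. Of the 10 chemokine genes 3 passed the filter on low counts, and all 3 were called.

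Cxcl12 was lower in aCaps than in gCaps. Its level ran from 538 to 1992 CPM in gCaps (median 1055) and from 0.663 to 199 CPM in aCaps (median 20.9), so that the classes did not overlap and gCaps were higher in 10 of 10 animals (6.17 ± 0.75 log2, SE, adjusted p = 9.66e-05). Reads were present in 66.4% ± 9.85 of gCaps and 32.2% ± 13.2 of aCaps. Large-vessel cells held 348 to 6569 CPM of Cxcl12 (median 1075), with reads in 57.3% ± 9.14 of cells, so that Cxcl12 was not particular to gCaps. Cx3cl1 and Cxcl16 were higher in aCaps. Cx3cl1 stood at 56.8 ± 29.6 CPM in gCaps and 150 ± 91.7 in aCaps, was higher in aCaps in 9 of 10 animals (day 0 replicate 1 being the exception, 90.6 against 24.0 CPM) and differed by -1.78 ± 0.40 log2 (adjusted p = 0.0116). Cxcl16 stood at 50.7 ± 43.5 and 140 ± 95.8 CPM, was higher in aCaps in 10 of 10 animals and differed by -1.94 ± 0.48 log2 (adjusted p = 0.0206). That call was lost without EC day 3.5 replicate 2 (-1.76, adjusted p = 0.0507). The shares of cells with reads were 26.9% and 51.5% for Cx3cl1 and 13.3% and 36.9% for Cxcl16 in gCaps and aCaps. Cxcl10 reads were present in 4.09% of gCaps, 2.03% of aCaps and 6.56% of large-vessel cells of day 1.5, too few cells for the test.

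**Figure D5:**
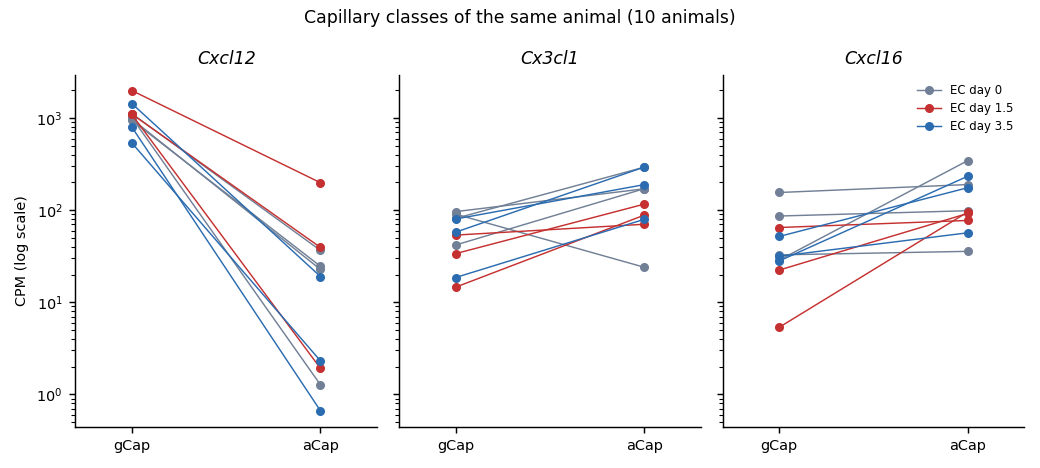
CPM (logarithmic vertical axis) of Cxcl12, Cx3cl1 and Cxcl16 in the gCap and aCap cells of the same animal, joined by a line and coloured by day (10 animals). All Cxcl12 lines fall from gCap to aCap, all Cxcl16 lines rise and all but 1 of the Cx3cl1 lines rise.

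Between EC days, no gene in the whole table was called by edgeR (0.0% of 17585 genes in each of the 3 comparisons, with 1422, 1541 and 798 genes at an unadjusted p under 0.05). DESeq2 called 371 genes (1.51%) for day 1.5 versus day 0, 508 (2.07%) for day 3.5 versus day 0 and 137 (0.558%) for day 3.5 versus day 1.5, and limma on the log10 means called 161, 262 and 0. Cxcl12 differed by 0.53 ± 0.35 log2 on day 1.5 (SE, adjusted p = 0.737) and by -0.13 ± 0.35 on day 3.5 (adjusted p = 0.95). Cx3cl1 differed by -0.91 ± 0.49 (adjusted p = 0.676) and -0.35 ± 0.48 (adjusted p = 0.89), and Cxcl16 by -0.99 ± 0.50 (adjusted p = 0.648) and -0.71 ± 0.50 (adjusted p = 0.734). The sort day moved with these values. Cxcl16 stood at 34.2 and 83.7 CPM in the uninjected animals sorted beside day 1.5 (37.4 to 63.7 CPM) and at 106 and 172 CPM in those sorted beside day 3.5 (37.8 to 78.0 CPM). Cx3cl1 stood at 68.4 and 81.7 CPM against 38.7 to 68.2 CPM, and at 110.0 and 155 CPM against 29.9 to 126 CPM.  The lists of 26 interferon targets, 14 tested NF-kB targets and 14 tested receptors likewise held 0 calls (and 0 with the sort day as a term), with median log2 differences on day 1.5 of 0.14, 0.70 and 0.14 against -0.05 over all genes. Of the other ligands 10 were tested with 0 calls and a median of 2.09.

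Between TC states edgeR called no gene of the chemokine set in the fit of all libraries without a block. DESeq2 called Cxcl9 and Cxcl16, and the block called Cxcl16. For extravascular versus intravascular cells, 0.951% of 19249 genes were called (183 genes, 0.416% higher and 0.535% lower), and 34 of 14697 with the animal as a replicate block. Cxcl1 differed by -0.73 ± 0.29 log2 (SE, edgeR adjusted p = 0.218), Cxcl16 by -0.38 ± 0.20 (adjusted p = 0.335), Cx3cl1 by 0.62 ± 0.27 (adjusted p = 0.256) and Ccl5 by -0.71 ± 0.70 (adjusted p = 0.646). Cxcl10 differed by 0.37 ± 1.06 (adjusted p = 0.906), and its sign turned with the block (-0.62). For Cxcl9, with 1 of 306 extravascular and 8 of 325 intravascular cells with reads, edgeR gave an adjusted p of 0.0755 and DESeq2, which called 5.47% of genes, 0.00063. The extravascular libraries held 0, 0, 0 and 0.0453 CPM of Cxcl9 and the intravascular libraries 0, 0.518, 0.317 and 11.1 CPM, which overlapped.

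For latent versus extravascular cells 8.57% of genes were called, 3.6% higher and 4.97% lower in latent cells. Among the genes of the chemokine set, Cxcl16 was nearest to the threshold. It stood at 80.3, 91.5, 56.05 and 79.4 CPM in extravascular and at 109, 163, 137.5 and 134 CPM in latent cells, groups that did not overlap. Its difference was 0.68 ± 0.20 log2 with an adjusted p of 0.0515 in edgeR, 0.00934 in DESeq2 (11.1% of genes called) and 0.0273 with the replicate number as a block, although these groups come from different animals. Without extravascular replicate 2 (0.79, adjusted p = 0.0387) or latent replicate 1 (0.76, adjusted p = 0.045) edgeR called it as well. Cxcl10 (-2.06 ± 1.10, adjusted p = 0.281), Ccl5 (-0.21 ± 0.69, adjusted p = 0.902), Cxcl1 (0.23, adjusted p = 0.678) and Cx3cl1 (0.26, adjusted p = 0.602) were further from it. Cxcl9 stood at 1.54, 0.447, 0.086 and 0.538 CPM in latent libraries, with reads in 7 of 329 cells against 1 of 306 extravascular cells (edgeR adjusted p = 0.106, DESeq2 adjusted p = 0.015). For latent versus proliferative cells edgeR called 0 of 19249 genes (977 at an unadjusted p under 0.05), DESeq2 called 109 (0.416%) and limma 0. The proliferative arm was a single pool, so that its spread was taken from the other groups and the comparison has no replicate check. Cxcl16 stood at 62.0 CPM in the pool and at 109 to 163 CPM in the latent libraries, and Ccl5 at 21.6 CPM and at 91.5 to 324 CPM.

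Receptors were read beside the ligands. Cxcr3, the receptor of CXCL9 and CXCL10, was found in 1 of 2479 ECs and in TCs at 5.76 ± 1.34 CPM in intravascular, 13.0 ± 5.05 in extravascular and 21.2 ± 7.51 in latent cells (SD, n = 4 each), with 2.81 and 43.2 CPM in the culture and proliferative pools. Cells with Cxcr3 reads numbered 25 of 369 in culture, 78 of 325 intravascular, 91 of 306 extravascular, 95 of 329 latent and 111 of 237 proliferative cells. ECs were lower on both days (edgeR adjusted p = 8.80e-08 and 7.96e-08). Cxcr4, the receptor of CXCL12, was found in 3.81% to 5.85% of ECs by day and in 1 of 1566 TCs. Ackr3, which removes CXCL12, stood at 42.5 ± 15.6 CPM in ECs of day 1.5 and at 1.69 ± 1.17 and 5.43 ± 2.19 CPM in intravascular and extravascular TCs (3.38 ± 0.61 log2 higher in ECs, adjusted p = 0.000167). Its reads were present in 17.6% of these ECs and in 13.5% and 21.9% of these TCs. On day 3.5 ECs held 14.7 ± 9.24 CPM of Ackr3, and it was not called. Dpp4, the protease that clips CXCL10 and CXCL12, was at 115 to 199 CPM in ECs by day and was found in 1 of 1566 TCs. Cxcr2 was present in both. Among the 15 receptors tested between TC states it was the one called, in latent versus extravascular cells. That comparison called 8.57% of all genes, 4.97% as lower. Cxcr2 stood at 73.9 ± 15.8 CPM in extravascular and 19.7 ± 1.61 CPM in latent cells (log2 difference -2.04 ± 0.16, edgeR adjusted p = 1.26e-05). Ackr1, a decoy of venules, was at 0 CPM in day 0 ECs and in all TCs, and at 13.7 ± 17.4 CPM in ECs of day 1.5, in 21 of 941 cells. Cxcr6 and Ccr1 were found in at most 4 cells of any group.

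Over the lists, 10 of 19 tested receptors were higher and 3 lower in ECs than in TCs on day 1.5 (median 2.64 log2, against 0.19 over all genes), and on day 3.5 the counts were 6 and 1. Of the 19, 7 on day 1.5 and 5 on day 3.5 had no read in at least 1 group compared. A gene without reads in 1 cell type passed the filter on low counts only through the other, so that its direction was set in advance. Over all genes 27.6% were higher and 18.9% lower on day 1.5 and 19.2% and 15.9% on day 3.5, while limma called 2339 higher and 11480 lower on day 1.5. In gCaps against aCaps, where 4.47% of all genes were higher and 4.35% lower, 3 of 10 tested receptors were higher (Ackr4, edgeR adjusted p = 0.000131, Cxcr4, adjusted p = 0.00211, and Ackr3, adjusted p = 0.00538) and Ackr2, a scavenger of inflammatory CC ligands, was lower (-1.31 ± 0.27, adjusted p = 0.00742). Interferon targets were higher in ECs for 20 of 26 genes on day 1.5 and 11 of 26 on day 3.5, against 27.6% and 19.2% of all genes. By p the first on day 1.5 were Irf9 (4.31 ± 0.28 log2), Irf1 (2.34 ± 0.21) and Stat2 (3.81 ± 0.37), the largest difference was that of Gbp4 (6.89 ± 0.82), and Irf8 was lower on both days. Of the interferon receptors, Ifnar1, Ifnar2 and Ifngr1 were higher in ECs, by 1.80 to 2.05 log2 on day 1.5. Among 19 other tested ligands, Pf4, Ppbp and Ccl11 were higher and Cxcl2 and Ccl20 lower in ECs of day 1.5, the first 2 being platelet transcripts. Of 16 NF-kB targets, 5 were higher in ECs of day 1.5 (Icam1 by 5.38 ± 0.48 log2, Selp, Sele, Nfkbia and Birc3) and 4 lower (Nfkb2, Csf3, Il6 and Sod2). Between latent and extravascular TCs, 3 of 26 interferon targets rose, Irf9 (2.17 ± 0.33 log2), Gbp2 (1.96 ± 0.38) and Irf1 (0.94 ± 0.22), as did 1 of 16 NF-kB targets, Nfkbia (0.84 ± 0.20), against 3.6% of all genes. Of 18 other tested ligands 2 rose, Ccl6 (8.13 ± 2.05 log2, edgeR adjusted p = 0.0265) and Pf4 (8.81 ± 2.24), and 6 of the 18 had no read in a group compared. Lyz2 of the leukocyte list (edgeR adjusted p = 0.0226), Pf4 of the platelet list (adjusted p = 0.0375) and Hba-a1 of the erythroid list (adjusted p = 0.0202) rose in the same comparison, and the leukocyte list reached 255.5 and 157 CPM in latent replicates 1 and 4. The part of other cells in these values was not tested.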

How the data were processed

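Single cells were profiled on plates by a modified SMART-Seq2 protocol with single reads and no molecular identifiers. The authors demultiplexed with bcl2fastq, quantified against GRCm38 with Salmon 0.7.2 and summarised to genes with tximport, and deposited these estimated counts per gene and cell. They also deposited log10 values of the cells they kept, normalised to housekeeping genes, with an annotation of each cell. Their filters asked for over 1000 genes in ECs and 2500 in TCs and under 5% mitochondrial reads, and contaminating ECs were removed by immune and stromal marker genes.

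Columns of the raw tables were assigned to animals through the annotation. It names 1 animal for all proliferative cells although the labels give 4 replicates, so the planned 16 TC libraries became 13 with proliferative cells as 1 pool, and the version with 4 proliferative animals was not run. Estimated counts of kept cells were summed per animal, rounded and tested with edgeR 4.0.16 (TMM, filterByExpr, quasi-likelihood, Benjamini-Hochberg over all genes, threshold 0.05; R 4.3.3). The EC fit held 10 libraries and the capillary fit had the animal as a block. CPM divided by the summed reads of the library. A cell was counted as positive with any read. DESeq2 1.42.0, limma 3.58.1 on mean log10 values per animal, no filter, all cells above the gene minimum, leaving out each library, and the replicate block were alternatives. The sort day as a term, the block of animals with both cell types and CPM without the cell of most reads were added after seeing the data. Cells were also drawn down to 100000 reads, which left out 3 to 131 shallower cells per group, and shares were repeated at a limit of 10 reads. Capillary classes were scored with Seurat 5.3.0 from the study's markers and limits. Limits for a count of 0 (3 counts) and 95% intervals cover counting error only. The scripts were tested on simulated data.

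Intravascular and extravascular TCs with the same number came from the same animal by the annotation, and their deviations correlated at 0.19, 0.05, 0.08 and -0.03. EC days shared only numbers. The chemokine genes and all gene lists were chosen with earlier results of these data known. Genes named outside the set were at most 6 per list and comparison past the threshold, by smallest p, and the 8 genes most like Cxcl10 among genes with reads in at least 10 ECs of day 1.5. Receptors and list genes named beyond these were chosen after their values were seen.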

Additional observations from a re-analysis of the deposited data

Results flagged for a closer look

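In groups of 4 libraries, 9 of 34 gene and group combinations held a library that stood apart by Dixon's test, where chance gives about 1 in 20. In 4 of the 9 a single library was above 0, which meets the test by construction, so that the number cannot be set against chance. In ECs of day 0 these were Cxcl1 in replicate 1 (0.437 CPM), Cxcl9 in replicate 2 (5.92 CPM) and Cxcl10 in replicate 4 (0.0122 CPM, a single read). In intravascular TCs they were Ccl5 in replicate 3 (551 CPM), Cxcl9 in replicate 4 (11.1 CPM), Ccl2 in replicate 2 (7.85 CPM) and Ccl7 in replicate 2 (0.0255 CPM). In extravascular TCs they were Cxcl9 in replicate 4 (0.0453 CPM) and Cxcl12 in replicate 3 (0.0602 CPM). In all of these but Ccl5 and Ccl2, at most 8 cells of the group had reads.

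Wells that the authors left out but that passed the gene minimum were not part of the comparisons. Cxcl10 reads were present in 3.62% of them among ECs of day 1.5 (5 of 138), in 0 of 78 on day 0 and in 2 of 87 on day 3.5.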

How the results depend on the processing

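Counts of genes called moved by over 1.5 times with the test. DESeq2 called 371, 508 and 137 genes between EC days (day 1.5 versus 0, 3.5 versus 0, 3.5 versus 1.5) and limma 161, 262 and 0, against 0 in edgeR; with all cells above the gene minimum edgeR called 1 for each comparison with day 0, and leaving out a library gave 0 to 1. For extravascular versus intravascular TCs (183) DESeq2 gave 1432, limma 1454 and the replicate block 34, with 8 to 518 without 1 library (518 without extravascular replicate 1, then 79, 10 and 8 without replicates 2 to 4, and 15, 24, 56 and 8 without intravascular replicates 1 to 4). Latent versus extravascular TCs (1650) gave 2908 with DESeq2 and 5027 with limma, latent versus proliferative 109 with DESeq2, ECs versus TCs of day 3.5 (7781) 13476 with limma and 5159 with animals of both cell types as a replicate block, and gCap versus aCap (1184) 3645 with DESeq2 and 3276 with limma. The cause was not tested. The block needs a pair in every animal and had fewer genes to test. Beyond the values given in the report, no block changed the call of any of the 10 genes of the set, and EC comparisons with the replicate block or the sort day as a term called 0 genes.

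The share of ECs of day 1.5 with Cxcl10 was 0.952% at a limit of 10 reads and 2.56% drawn down, that of intravascular TCs 8.88% at 10 reads, and the mean of day 1.5 was 7.07 CPM without the cell of most reads, stricter limits by construction. Directions of log2 differences turned as follows. For Cxcl12 on day 3.5 versus day 0 they were 0.064 with limma and -0.58 to 0.16 without 1 library (0.16 without day 3.5 replicate 3), and for Cx3cl1 -0.72 to 0.078 (0.078 without day 3.5 replicate 2). Cxcl10 in extravascular versus intravascular TCs gave -0.28 with limma, -0.43 without the cell of most reads, -0.62 with the replicate block and -0.28 to 0.74 without 1 library (-0.04 without extravascular or intravascular replicate 2). In latent versus extravascular TCs, Ccl5 gave 0.83 with limma, 1.28 without the cell of most reads and -0.78 to 0.11 without 1 library (0.0044 without latent replicate 2), and Cx3cl1 -0.0064 to 0.45 (-0.0064 without latent replicate 4). For ECs versus TCs, limma turned Cx3cl1 (-1.13 and -2.04), Cxcl10 (-0.87 on day 1.5, and -0.78 without the cell of most reads) and Cxcl9 (-0.010). The cause was not tested. Of the alternatives for log2 differences 552 kept direction and side of the threshold, 12 passed it newly and 11 missed it.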
